A study of Homo sapiens with 12 samples.

Results

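The genes described here are host genes, long noncoding RNA genes whose transcripts carry small nucleolar RNAs (snoRNAs) or microRNAs in their introns or exons. They were chosen by name from the table of 20771 genes: symbols made of SNHG and a number, symbols that begin with MIR and end with HG, and GAS5, ZFAS1, DANCR and EPB41L4A-AS1. The rule gave 57 genes, 27 snoRNA hosts and 30 microRNA hosts, and GENCODE release 44 annotates each of them as a long noncoding RNA. All 27 snoRNA hosts and 20 of the 30 microRNA hosts passed the filter on low counts and were tested. A microRNA host with few reads at one time and more at the other can pass that filter through the higher group alone, so the tested microRNA hosts are not a neutral sample of the 30.

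RNA came from clones of a pair of Ewing sarcoma cell lines, EW8-RRM1-KO and TC71-RRM1-KO. Each is a single-cell clone in which Cas9 disrupted endogenous RRM1, the catalytic subunit of ribonucleotide reductase, while a codon-optimized RRM1 transgene runs under doxycycline. Each line gave 3 libraries labelled 0 h, with doxycycline present, and 3 labelled 48 h, after 48 h without it, so both time points carry the same knockout and transgene. No source states whether the 3 libraries of a group were separate cultures, and p-values then measure the spread between these libraries, which may be technical. Genes known from Ewing sarcoma were present in every library: NKX2-2 (at least 7.33 CPM), NR0B1 (at least 76.6 CPM) and CD99 (at least 236 CPM). The 12 libraries held 18468485 to 35698991 counts, and edgeR's quasi-likelihood test was fitted to 16515 genes in all of them together. RRM1 itself averaged 9.52 CPM at 0 h and 70.2 CPM at 48 h in EW8, and 16.2 and 25.4 CPM in TC71. Whether transgene reads were counted under RRM1 was not tested, so these values do not check the loss of the transgene. Levels are given in CPM, library-scaled counts (TMM factors) with each library set to 1e+06, and "rose" and "fell" are used of adjusted p-values under 0.05 (Benjamini-Hochberg over all genes tested).

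snoRNAs guide the chemical modification of ribosomal and spliceosomal RNA: box C/D snoRNAs direct ribose methylation through fibrillarin, and box H/ACA snoRNAs direct pseudouridylation through dyskerin. In human cells most are cut from introns of host transcripts, and the spliced remainder of a noncoding host is often short-lived because nonsense-mediated decay removes it during translation. Many snoRNA hosts begin with a 5′ terminal oligopyrimidine (TOP) tract, the start that ribosomal protein mRNAs also have. microRNAs are cut from hairpins in longer transcripts by DROSHA and DICER1 and then guide Argonaute proteins to messenger RNAs through the seed, bases 2 to 8. A library made from polyadenylated RNA measures the host transcript, not the mature small RNA.

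The annotation places 140 small RNA gene entries on the same strand inside the snoRNA hosts, 109 of box C/D and 23 of box H/ACA type, and 134 of them lie in an intron of the host's canonical transcript. SNORA16A in SNHG12 and SNORA17B in SNHG7 are each entered more than once at the same place, so the entries outnumber the loci. SNHG14, which runs through the imprinted Prader-Willi region, holds 84 of the box C/D genes. GAS5 has no snoRNA gene in this annotation, while RefSeq lists 11 within its span. The microRNA hosts hold 50 microRNA genes, 44 of them intronic. MIR17HG (ENSG00000215417, chr13:91347686-91397592, + strand), the Myc-responsive host of the miR-17-92 cluster, holds 6 hairpins. Its mature microRNAs are printed because MIR17HG had the lowest log2 fold change of the tested members in both lines; capitals mark the seed, and sequences and GRCh38.p14 positions are from RefSeq.
hsa-miR-17-5p (chr13:91350618-91350640): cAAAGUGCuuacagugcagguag
hsa-miR-20a-5p (chr13:91351072-91351094): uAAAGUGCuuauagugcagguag
hsa-miR-18a-5p (chr13:91350756-91350778): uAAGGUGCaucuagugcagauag
hsa-miR-19a-3p (chr13:91350939-91350961): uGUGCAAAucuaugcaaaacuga
hsa-miR-19b-3p (chr13:91351245-91351267): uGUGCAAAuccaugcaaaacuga
hsa-miR-92a-3p (chr13:91351361-91351382): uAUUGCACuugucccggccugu
miR-17 and miR-20a share a seed, as do miR-19a and miR-19b.

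RefSeq gave mature sequences for each of the 52 microRNA genes inside members, with 88 mature entries and 69 distinct seeds. Separate hairpin sequence entries were there for 45 of the 52. The seed of the let-7 family, which holds back proliferation and stem-cell genes, was the most shared, with 7 mature microRNAs from 5 hosts. Of these hosts, MIR4458HG fell in both lines, MIRLET7BHG rose in EW8, MIR99AHG passed in neither, and MIRLET7A1HG and MIR4500HG had too few reads to be tested. The sequences show that a single target-pairing seed is carried by hosts with different responses.
hsa-miR-4458 in MIR4458HG (chr5:8460933-8460951): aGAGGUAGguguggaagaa
hsa-let-7b-5p in MIRLET7BHG (chr22:46113691-46113712): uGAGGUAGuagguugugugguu
hsa-let-7a-5p in MIRLET7BHG (chr22:46112752-46112773): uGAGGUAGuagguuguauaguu
hsa-let-7c-5p in MIR99AHG (chr21:16539838-16539859): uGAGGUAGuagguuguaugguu
hsa-let-7d-5p in MIRLET7A1HG (chr9:94178841-94178862): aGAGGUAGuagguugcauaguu
hsa-miR-4500 in MIR4500HG (chr13:87618671-87618687): uGAGGUAGuaguuucuu
Other hosts that the results below turn on are MIR4435-2HG, MIR4453HG, MIR9-3HG, MIR600HG, MIR137HG and MIR222HG.
hsa-miR-4435 in MIR4435-2HG (chr2:111321061-111321082): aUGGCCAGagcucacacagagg
hsa-miR-4453 in MIR4453HG (chr4:152536432-152536451): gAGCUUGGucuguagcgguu
hsa-miR-9-5p in MIR9-3HG (chr15:89368032-89368054): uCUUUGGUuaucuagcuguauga
hsa-miR-600 in MIR600HG (chr9:123111561-123111583): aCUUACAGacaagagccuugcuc
hsa-miR-137-3p in MIR137HG (chr1:98046091-98046113): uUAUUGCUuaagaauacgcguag
hsa-miR-221-3p in MIR222HG (chrX:45746180-45746202): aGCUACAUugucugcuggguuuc
hsa-miR-222-3p in MIR222HG (chrX:45747036-45747056): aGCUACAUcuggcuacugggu
miR-221 and miR-222 share a seed.

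A TOP-like start was defined as a C followed by at least 4 pyrimidines, C or T, beginning within 5 bases of the annotated start on the transcribed strand. It was found in 11 of 23 snoRNA-host promoters that RefSeq gives (47.8%), in 8 of 35 promoters of 27 microRNA hosts (22.9%) and in 21.1% of 35116 promoters of all genes. The windows below run from 15 bases before to 35 after the start in GRCh38.p14, with the tract in capitals, for tract-bearing hosts with opposite outcomes: the first 5 rose in EW8 and the last 4 fell there.
SNHG17 (chr20:38435294-38435343, - strand): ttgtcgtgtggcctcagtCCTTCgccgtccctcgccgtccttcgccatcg
SNHG32 (chr6:31834901-31834950, + strand): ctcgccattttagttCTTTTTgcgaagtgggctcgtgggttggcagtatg
SNHG12 (chr1:28581839-28581888, - strand): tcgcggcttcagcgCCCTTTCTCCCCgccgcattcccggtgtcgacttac
ZFAS1 (chr20:49278627-49278676, + strand): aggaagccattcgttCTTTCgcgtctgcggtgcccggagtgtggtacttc
SNHG8 (chr4:118278747-118278796, + strand): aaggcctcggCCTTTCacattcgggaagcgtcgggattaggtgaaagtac
SNHG5 (chr6:85678699-85678748, - strand): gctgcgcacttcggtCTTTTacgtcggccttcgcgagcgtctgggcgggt
SNHG16 (chr17:76557749-76557798, + strand): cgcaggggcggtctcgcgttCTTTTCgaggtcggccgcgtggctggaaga
SNHG19 (chr16:2155324-2155373, - strand): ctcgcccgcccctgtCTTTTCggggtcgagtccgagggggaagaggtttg
DANCR (chr4:52712379-52712428, + strand): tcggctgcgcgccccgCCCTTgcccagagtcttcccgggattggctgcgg
By count, the tract stood in 6 of 11 hosts that rose in EW8 and in 4 of 11 that fell, among those with a promoter entry. For some hosts the RefSeq start lies upstream of the GENCODE gene, so a tract at another start would be missed. GAS5, which rose in EW8, and SNHG14, which fell, are such hosts and were scored without a tract.

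The snoRNA hosts split in EW8 and mostly fell in TC71. In bulk RNA, fewer cells with a transcript and less of it per cell cannot be told apart. In EW8, 12 of 27 rose (44.4%, against 37.0% of all genes tested) and 13 fell (48.1%, against 31.6%). In TC71, 3 rose (11.1%, against 22.9%) and 18 fell (66.7%, against 19.2%). The class median on the log2 scale stood at -0.10 for EW8 and -0.27 for TC71, beside 0.03 and -0.00 for all genes tested. Under total-count scaling the class median of EW8 became 0.02, and TC71 had 6 risen and 15 fallen hosts. With a fold above 2 as well, EW8 had 6 risen and 3 fallen hosts, where 13.9% of all genes rose and 3.35% fell past that fold. In TC71 none rose and 1 fell past it, against 3.26% and 0.854% of all genes.

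**Figure D1:**
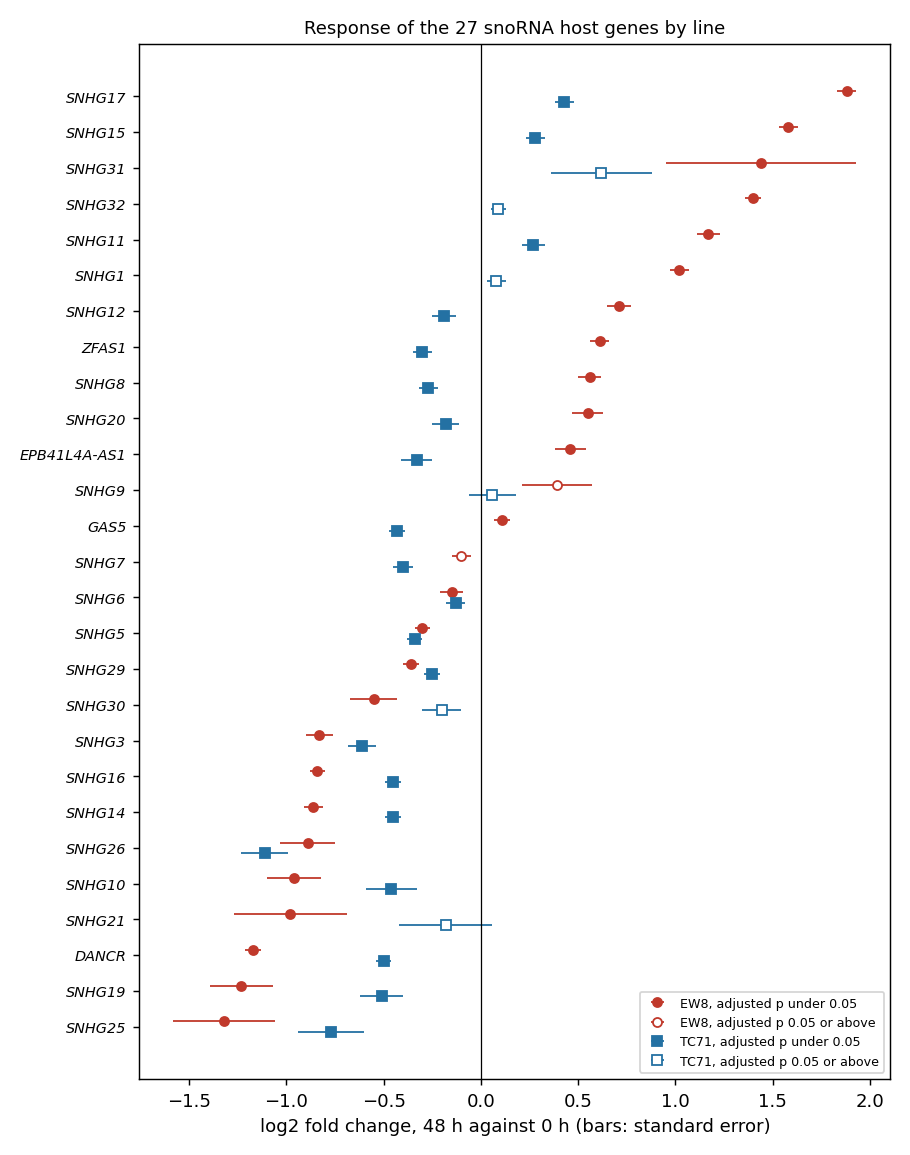
Log2 fold change at 48 h against 0 h (x axis) of the 27 snoRNA hosts, ordered by their value in EW8; circles are EW8, squares TC71, filled symbols have an adjusted p under 0.05 and bars are standard errors. The EW8 values run from -1.32 (SNHG25) to 1.88 (SNHG17), while those of TC71 run from -1.11 (SNHG26) to 0.62 (SNHG31).

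SNHG17 (ENSG00000196756, chr20:38419638-38435409, - strand), host of 5 box H/ACA genes including the SNORA71 group, had the largest rise among snoRNA hosts in EW8. It stood at 49.6, 49.6 and 44.4 CPM at 0 h and at 174, 171 and 181 CPM at 48 h in EW8. In TC71 it stood at 51.3, 52.5 and 53.3 CPM and then at 73.6, 67.8 and 70.4 CPM. The groups did not overlap in either line, and the log2 fold changes were 1.88 (SE 0.05, adjusted p = 2.26e-26) and 0.43 (SE 0.05, adjusted p = 1.45e-08). Its divergent neighbour SNHG11, 10933 bases away and host of 2 box H/ACA genes, rose in both lines too, by 1.17 (SE 0.06, adjusted p = 6.78e-18) in EW8 and 0.27 (SE 0.06, adjusted p = 5.69e-04) in TC71 on the log2 scale.

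SNHG15 (ENSG00000232956, chr7:44983019-44986961, - strand), host of SNORA9, was at 45.9, 48.6 and 47.5 CPM in EW8 at 0 h and at 140, 143 and 142 CPM at 48 h. In TC71 it went from 39.5, 40 and 40.5 CPM to 49.7, 48.2 and 47.7 CPM. These are log2 fold changes of 1.58 (SE 0.05, adjusted p = 3.24e-25) and 0.28 (SE 0.05, adjusted p = 1.89e-05), with no overlap in either line. SNHG31, a low-level H/ACA host, had 5, 3 and 4 counts in EW8 at 0 h and 10, 9 and 8 at 48 h; it passed there at 1.44 (SE 0.49, adjusted p = 0.00933), but not without EW8 0 h replicate 3 (adjusted p = 0.0731). In TC71 its value of 0.62 (adjusted p = 0.0538) passed without TC71 48 h replicate 1 or 3 (adjusted p = 0.0412 and 0.0275) and with total-count scaling (0.0382).

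The large risers of box C/D type were SNHG32 and SNHG1. SNHG32 (ENSG00000204387, chr6:31834608-31839766, + strand), host of SNORD48 and SNORD52, was at 115, 113 and 117 CPM in EW8 at 0 h and at 300, 299 and 314 CPM at 48 h. In TC71 it was at 157, 160 and 153 CPM and then at 165, 166 and 169 CPM. SNHG32 rose by 1.40 (SE 0.04, adjusted p = 1.44e-25) on the log2 scale in EW8, and its TC71 value was 0.09 (SE 0.04, adjusted p = 0.0637), which passed without EW8 0 h replicate 2 (adjusted p = 0.0287), with total-count scaling (0.14, adjusted p = 0.00232), with at least 10 counts in every library (adjusted p = 0.0247) and with each line fitted alone (adjusted p = 0.0405).

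SNHG1 (ENSG00000255717, chr11:62851978-62855953, - strand), a host of 7 box C/D genes known to be raised in many tumours, became the snoRNA host with the highest CPM in EW8 at 48 h. Its 3 libraries moved from 274, 251 and 275 CPM to 521, 553 and 551 CPM in EW8. In TC71 they were at 232, 223 and 257 CPM at 0 h and at 248, 261 and 244 CPM at 48 h, and these groups overlapped. SNHG1 rose by 1.02 (SE 0.05, adjusted p = 7.48e-19) on the log2 scale in EW8, and its TC71 value was 0.08 (SE 0.05, adjusted p = 0.167), which passed without TC71 0 h replicate 3 (adjusted p = 0.0173) and with total-count scaling (0.13, adjusted p = 0.0176).

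A group of 6 snoRNA hosts rose in EW8 and fell in TC71: ZFAS1, SNHG8, EPB41L4A-AS1, SNHG12, SNHG20 and GAS5. Of all genes tested, 1.22% did so. No snoRNA host did the reverse. The count lay between 3 and 6 under the other scalings, tools, filters and left-out libraries, and ZFAS1, SNHG8 and EPB41L4A-AS1 were in it each time.

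ZFAS1 (ENSG00000177410, chr20:49278178-49299600, + strand), host of the SNORD12 group, was at 128, 111 and 129 CPM in EW8 at 0 h and at 184, 192 and 187 CPM at 48 h. In TC71 it was at 140, 143 and 140 CPM and then at 114, 119 and 111 CPM. The groups did not overlap in either line, and the log2 fold changes were 0.61 (SE 0.05, adjusted p = 1.32e-13) and -0.30 (SE 0.05, adjusted p = 2.93e-06). Exons of ZFAS1 overlap ZNFX1 on the other strand, and no source gives the strand setting of the counting.

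SNHG8 (ENSG00000269893, chr4:118278703-118285316, + strand), host of SNORA24, went from 30.6, 29.1 and 33.7 CPM to 44.3, 47.1 and 47.2 CPM in EW8, and from 58.1, 58.3 and 59.8 CPM to 46.8, 49.9 and 49.7 CPM in TC71. Its log2 fold changes were 0.56 (SE 0.06, adjusted p = 1.97e-10) and -0.27 (SE 0.05, adjusted p = 1.14e-04). EPB41L4A-AS1 (ENSG00000224032, chr5:112160526-112164818, + strand), host of SNORA13, went from 11, 10.7 and 10.9 CPM to 14.7, 14.3 and 16 CPM in EW8, and from 17.7, 16.7 and 16.1 CPM to 12.3, 13.9 and 14 CPM in TC71. Its log2 fold changes were 0.46 (SE 0.08, adjusted p = 9.23e-06) and -0.33 (SE 0.08, adjusted p = 6.67e-04). For both genes the lines stood further apart at 0 h than at 48 h, since the level that started lower rose and the level that started higher fell.

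SNHG12, which carries SNORA16A, SNORA44, SNORA61 and the box C/D gene SNORD99, rose in EW8 (log2 fold change 0.71, SE 0.06, adjusted p = 3.57e-12). In TC71 its libraries overlapped between the times, with 63.1, 59.8 and 70.8 CPM at 0 h and 60.2, 58.7 and 51.6 CPM at 48 h, and its value of -0.19 (SE 0.06, adjusted p = 0.00887) did not pass without TC71 0 h replicate 3 (adjusted p = 0.138) or TC71 48 h replicate 3 (adjusted p = 0.123), with total-count scaling (0.0572) or with each line fitted alone (0.0627). SNHG20, host of a small Cajal body RNA, rose by 0.55 (SE 0.08, adjusted p = 1.21e-07) in EW8. Its TC71 value of -0.18 (SE 0.07, adjusted p = 0.0469) lay near the threshold and did not pass without EW8 48 h replicate 1 or 2 (adjusted p = 0.0532 and 0.0515), TC71 0 h replicate 2 or 3 (0.0775 and 0.207) or TC71 48 h replicate 1 or 3 (0.105 and 0.121), nor with DESeq2 (0.0987), total-count scaling (0.154), no filter on low counts (0.0681) or each line fitted alone (0.0661).

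GAS5 (ENSG00000234741, chr1:173858559-173868882, - strand), named for its rise in growth-arrested cells and known as a decoy for the glucocorticoid receptor, moved mainly in TC71. There it fell from 329, 317 and 334 CPM to 246, 259 and 226 CPM, a log2 fold change of -0.43 (SE 0.04, adjusted p = 4.71e-10). In EW8 it was at 319, 303 and 316 CPM and then at 328, 349 and 338 CPM, a log2 fold change of 0.11 (SE 0.04, adjusted p = 0.0193). That small rise did not pass without EW8 0 h replicate 1, 2 or 3 (adjusted p = 0.104, 0.27 and 0.121) or without EW8 48 h replicate 2 (adjusted p = 0.0949), nor with each line fitted alone (adjusted p = 0.058).

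A further 11 snoRNA hosts fell in both lines. DANCR (ENSG00000226950, chr4:52712325-52723623, + strand), which holds cells in an undifferentiated state and carries SNORA26, was at 190, 187 and 203 CPM in EW8 at 0 h and at 87.7, 82.7 and 87.8 CPM at 48 h. In TC71 it was at 215, 219 and 211 CPM and then at 152, 149 and 155 CPM. The log2 fold changes were -1.17 (SE 0.04, adjusted p = 2.80e-22) and -0.50 (SE 0.04, adjusted p = 6.12e-12), and the groups did not overlap.

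SNHG19, host of SNORD60, and SNHG25, host of SNORD104, are short genes of 614 and 540 bases and low counts. SNHG19 had 118, 109 and 222 counts in EW8 at 0 h and 50, 43 and 61 at 48 h, which is -1.23 on the log2 scale (SE 0.16, adjusted p = 2.10e-08); it fell in TC71 by 0.51 (SE 0.11, adjusted p = 2.36e-04). SNHG25 had 37, 38 and 51 counts and then 17, 11 and 13, a log2 fold change of -1.32 (SE 0.26, adjusted p = 4.34e-05); it fell in TC71 by 0.77 (SE 0.17, adjusted p = 3.15e-04). SNHG26, host of SNORD93, was the snoRNA host that fell most in TC71, from 8.01, 9.91 and 11 CPM to 4.2, 5.11 and 4.08 CPM. Its log2 fold change there was -1.11 (SE 0.12, adjusted p = 2.14e-09), against -0.89 (SE 0.14, adjusted p = 1.41e-06) in EW8.

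SNHG16, SNHG14 and SNHG3 fell with small errors. SNHG16, host of the SNORD1 group, was at 138, 134 and 133 CPM and then at 77, 75.4 and 73.8 CPM in EW8, and at 123, 123 and 129 CPM and then at 90, 95.2 and 89.2 CPM in TC71. Its log2 fold changes were -0.84 and -0.45, with SE 0.04 in both lines (adjusted p = 6.85e-18 and 2.11e-10). SNHG14 was at 136, 135 and 128 CPM and then at 70.4, 76.5 and 72.9 CPM in EW8, and at 135, 136 and 137 CPM and then at 103, 100 and 96.2 CPM in TC71. It fell by 0.86 (SE 0.05, adjusted p = 6.10e-18) and 0.45 (SE 0.04, adjusted p = 3.37e-10), and its exons overlap SNRPN on the same strand, so that their reads could be split. SNHG3, host of SNORA73A and SNORA73B, was at 151, 147 and 150 CPM and then at 91.5, 78.8 and 82.7 CPM in EW8, and at 174, 181 and 196 CPM and then at 128, 128 and 106 CPM in TC71. No groups overlapped for these hosts. SNHG3 fell by 0.83 (SE 0.07, adjusted p = 3.00e-09) and 0.61 (SE 0.07, adjusted p = 5.43e-07), and it overlaps RCC1 on the same strand.

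The 3 snoRNA hosts with the highest level per length at 0 h were SNHG29, GAS5 and SNHG5. SNHG29, with 790 CPM per kb of canonical transcript in EW8 and 1015 in TC71 at 0 h, went from 334, 355 and 360 CPM to 283, 277 and 260 CPM in EW8, and from 450, 451 and 449 CPM to 368, 391 and 374 CPM in TC71. Its log2 fold changes were -0.36 and -0.25 (SE 0.04 each, adjusted p = 8.08e-10 and 2.44e-06). SNHG5, host of SNORD50B, was at 380, 359 and 384 CPM and then at 306, 308 and 302 CPM in EW8, and at 344, 335 and 337 CPM and then at 259, 283 and 259 CPM in TC71. It fell by 0.30 and 0.34 (SE 0.04 each, adjusted p = 4.13e-08 and 8.47e-09). GAS5 stood between them per length, with 407 and 425 CPM per kb at 0 h, and SNHG5 had 285 and 257.

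The other members in this class moved less or had few reads. SNHG10, host of SCARNA13, fell by 0.96 in EW8 and by 0.46 in TC71. The TC71 call was lost without TC71 0 h replicate 3, where the value was -0.24 (adjusted p = 0.137). SNHG6 had log2 values of -0.15 and -0.13, near the threshold in both lines (adjusted p = 0.0201 and 0.0361), and passed in neither when scaled to total counts alone. Its EW8 call was also lost without EW8 48 h replicate 2 or 3 (adjusted p = 0.0692 and 0.0502), and its TC71 call without TC71 0 h replicate 2 or 3 (0.0634 and 0.224) or TC71 48 h replicate 1 or 3 (0.0808 and 0.0947), with DESeq2 (0.0604), no filter on low counts (0.0595) or each line fitted alone (0.0505). SNHG21 and SNHG30 fell in EW8 (-0.98 and -0.55) and did not pass in TC71. SNHG7 fell in TC71 (-0.40, adjusted p = 3.92e-08), with -0.10 in EW8 (adjusted p = 0.0593). Its EW8 value passed with DESeq2 size factors (adjusted p = 0.0411), at least 10 counts in every library (0.0277) or each line fitted alone (0.0235), and without EW8 0 h replicate 1, 2 or 3 (0.0382, 0.00824 and 0.0413), EW8 48 h replicate 1 (0.0346) or TC71 48 h replicate 2 (0.0495). SNHG9 passed in neither line, but its EW8 value of 0.39 (adjusted p = 0.0527) did with total-count scaling (0.51, adjusted p = 0.0125) and without EW8 48 h replicate 1 (0.0317) or TC71 0 h replicate 3 (0.0429).

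**Figure D2:**
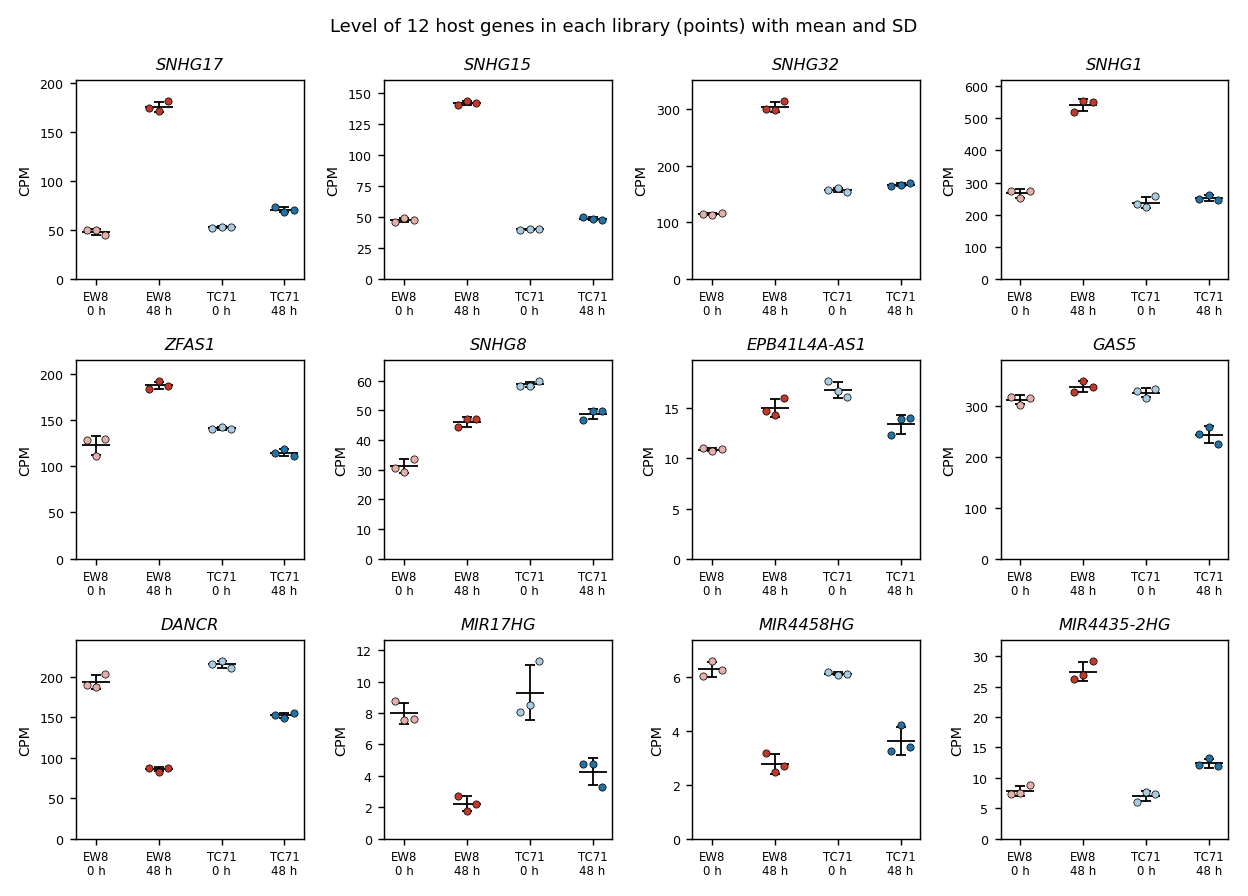
Level in CPM (y axis, from 0) of 12 host genes in each library (points), with the mean and SD (n = 3) per line and time. SNHG17, SNHG15, SNHG32 and SNHG1 are high in EW8 at 48 h alone; ZFAS1 and EPB41L4A-AS1 are lower in EW8 at 0 h and higher in EW8 at 48 h, and SNHG8 is lower in EW8 at 0 h and overlaps between the lines at 48 h; DANCR, MIR17HG and MIR4458HG are lower at 48 h in both lines, and MIR4435-2HG is higher.

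By the kind of snoRNA carried, 8 of the 11 hosts of box C/D genes alone fell in EW8 and 3 rose, with a median log2 fold change of -0.36. Of the 10 hosts of H/ACA genes alone, 2 fell and 6 rose, with a median of 0.51. In TC71 the box C/D hosts gave 8 falls and no rise (median -0.30) and the H/ACA hosts 5 falls and 3 rises (median -0.10). The shares over all genes tested were 37.0% risen and 31.6% fallen for EW8, and 22.9% risen and 19.2% fallen for TC71. GAS5, with no snoRNA gene in the annotation used, the hosts of both kinds and those of small Cajal body RNAs alone are in neither subgroup. The hosts that rose and those that fell in EW8 had median canonical transcripts of 1554 and 1316 bases, respectively, and median levels of 42.6 and 35.6 CPM at 0 h.

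The table also holds 24 rows for small RNAs that lie inside members, none above 118 counts in a library, and 12 of them were tested. Libraries of polyadenylated RNA do not measure mature small RNAs, and which transcripts gave the reads of these rows was not tested. No row rose in either line, where 37.0% of all genes tested rose in EW8 and 22.9% in TC71. In EW8 6 rows fell and in TC71 4 fell, where 31.6% and 19.2% of all genes tested fell. Some tested rows share a host, and MIRLET7D lies in MIRLET7A1HG, which was not tested. SNORD12 lies in an intron of the canonical ZFAS1 transcript but overlaps an exon of another ZFAS1 transcript. It had 32, 28 and 45 counts in EW8 at 0 h and 16, 9 and 5 at 48 h. Its log2 fold change was -1.50 (SE 0.31, adjusted p = 6.90e-05). The sign of this row is opposite to that of ZFAS1, which rose there. In TC71 it had 28, 23 and 31 counts and then 12, 13 and 8, a value of -1.56 (SE 0.31, adjusted p = 1.36e-04), beside -0.30 for ZFAS1.

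SNORD99, in SNHG12, was also lower where its host was higher, with 39, 25 and 59 counts in EW8 at 0 h and 12, 11 and 9 at 48 h (log2 fold change -1.62, SE 0.27, adjusted p = 2.55e-06). The 3 SNORA71 rows within SNHG17 had values of -0.46, -0.35 and 0.25 in EW8 and did not pass, while SNHG17 rose by 1.88. SNORD104 moved with SNHG25 (-1.35 against -1.32 in EW8, -0.89 against -0.77 in TC71), and SNORD60 with SNHG19 (-1.23 for each in EW8). The difference between a row and its host was not tested.

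**Figure D3:**
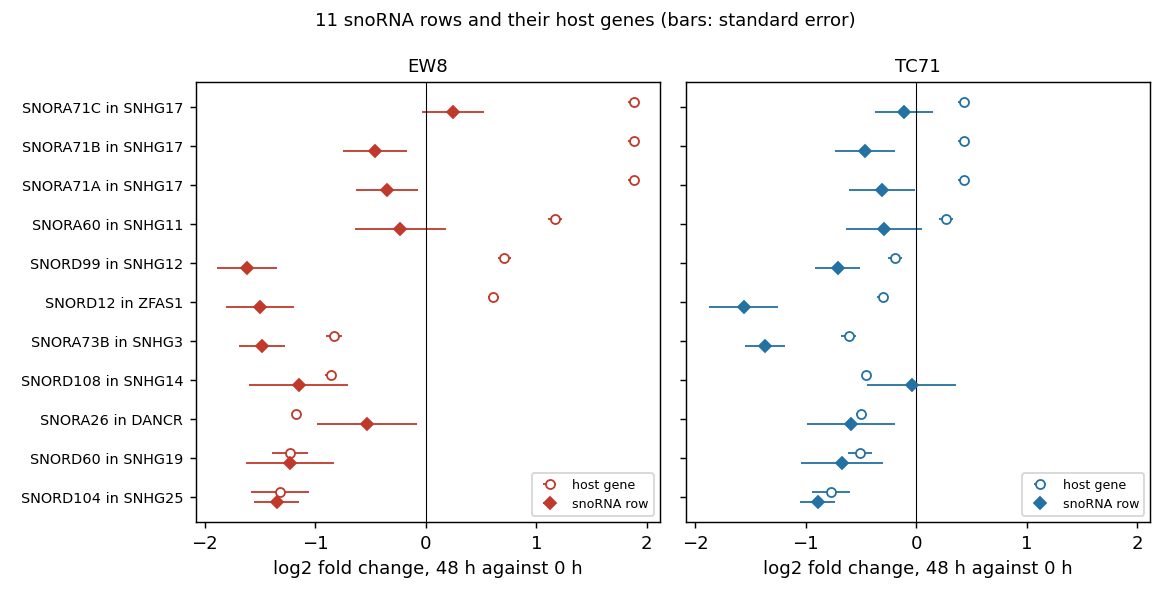
Log2 fold change at 48 h against 0 h (x axis) of 11 tested snoRNA rows (diamonds) and of their host genes (open circles), with standard errors, in EW8 on the left and TC71 on the right. In EW8, SNORD12 and SNORD99 are at -1.50 and -1.62 while their hosts ZFAS1 and SNHG12 are at 0.61 and 0.71. The rows do not measure mature snoRNAs.

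Among the 20 tested microRNA hosts, 9 rose in EW8 (45%, against 37.0% of all genes tested) and 4 fell (20%, against 31.6%). In TC71, 3 rose (15%, against 22.9%) and 6 fell (30%, against 19.2%). The class median on the log2 scale was 0.38 for EW8 and -0.09 for TC71. Setting MIR3681HG, absent at 0 h in both lines, to its bound could not move these medians. Its log2 bounds of 2.39 and 0.45 stayed above them, as its fitted values did. With at least 10 counts in every library the medians became 0.16 and -0.26. Past a fold of 2, EW8 had 5 risen and 3 fallen hosts, where 13.9% and 3.35% of all genes did so, and TC71 had 1 of each by the fitted fold, against 3.26% and 0.854%. The riser in TC71 was MIR3681HG, which had no reads at 0 h, and its bound there of at least 1.37-fold does not show a fold above 2.

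The 4 hosts that fell in EW8 also fell in TC71. MIR17HG was at 8.76, 7.56 and 7.63 CPM in EW8 at 0 h and at 2.71, 1.75 and 2.2 CPM at 48 h. In TC71 it was at 8.05, 8.53 and 11.3 CPM and then at 4.77, 4.77 and 3.28 CPM. The log2 fold changes were -1.85 (SE 0.18, adjusted p = 1.28e-09) and -1.14 (SE 0.14, adjusted p = 5.64e-07), and the groups did not overlap in either line.

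MIR4453HG (ENSG00000268471), with a single exon that contains its hairpin, had 75, 60 and 88 counts in EW8 at 0 h and 24, 20 and 22 at 48 h. Its log2 fold change was -1.46 (SE 0.20, adjusted p = 8.13e-08) there and -0.80 (SE 0.16, adjusted p = 1.41e-04) in TC71. MIR4458HG (ENSG00000247516), host of a microRNA with the let-7 seed, was at 6.04, 6.59 and 6.25 CPM in EW8 at 0 h and at 3.19, 2.46 and 2.69 CPM at 48 h. In TC71 it went from 6.18, 6.08 and 6.12 CPM to 3.24, 4.21 and 3.4 CPM, and the log2 fold changes were -1.18 (SE 0.14, adjusted p = 2.55e-09) and -0.76 (SE 0.12, adjusted p = 4.47e-06). MIR600HG was at 3.85, 2.98 and 3.39 CPM and then at 1.81, 2.01 and 1.76 CPM in EW8, and at 7.41, 8.88 and 8.36 CPM and then at 6.6, 6.15 and 5.97 CPM in TC71. It fell by 0.88 (SE 0.16, adjusted p = 1.56e-05) and 0.39 (SE 0.11, adjusted p = 0.00292), and its exons overlap STRBP on the same strand.

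MIR4435-2HG (ENSG00000172965, chr2:111006015-111523376, - strand), a long noncoding RNA of myeloid cells and tumours, rose in both lines and was the microRNA host with the highest CPM in each at 48 h. It went from 7.31, 7.5 and 8.81 CPM to 26.3, 27 and 29.2 CPM in EW8, and from 6.11, 7.7 and 7.36 CPM to 12.1, 13.2 and 11.9 CPM in TC71. The log2 fold changes were 1.78 (SE 0.09, adjusted p = 1.09e-18) and 0.82 (SE 0.10, adjusted p = 1.78e-08). Its RefSeq promoter holds an AP-1 motif (TGAGTCA or TGACTCA on either strand) 41 bases after the start. That motif stood in 3 of the 35 microRNA-host promoters, 0 of the 23 snoRNA-host promoters and 4.95% of all promoters. The E-box (CACGTG) stood in 1 and 2 of them and 7.26% of all, and the CRE (TGACGTCA) in 1 and 0 and 1.85% of all.

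MIR9-3HG, host of a hairpin of the neural microRNA miR-9, was at 3.46, 3.44 and 2.93 CPM in EW8 at 0 h and rose to 7.28, 7.32 and 8.96 CPM at 48 h, by 1.28 on the log2 scale (SE 0.19, adjusted p = 5.21e-06). In TC71 it was at 7.56, 7.65 and 9.72 CPM and then at 13.1, 12.9 and 8.69 CPM, and these groups overlapped. The TC71 value of 0.47 (SE 0.14, adjusted p = 0.0126) did not pass without TC71 0 h replicate 1 or 2 (adjusted p = 0.0642 and 0.0526) or with each line fitted alone (adjusted p = 0.0635).

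The highest log2 fold changes of the class came from hosts with few reads. MIR3681HG had no reads in any 0 h library, 12, 13 and 16 counts in EW8 at 48 h and 3, 6 and 6 in TC71. Set against a floor of 3 counts per library, it was at least 5.25-fold higher in EW8 and at least 1.37-fold higher in TC71 at 48 h. MIR181A2HG had 3, 4 and 3 counts in EW8 at 0 h and 15, 17 and 18 at 48 h (log2 fold change 2.58, SE 0.43, adjusted p = 2.29e-06). MIR137HG, a host of neural miR-137 whose exons overlap DPYD on the same strand, had 5, 5 and 9 counts and then 26, 27 and 35 (2.49, SE 0.35, adjusted p = 1.05e-07). Neither passed in TC71, where MIR181A2HG had 0.14 (adjusted p = 0.737) and MIR137HG 0.45 (adjusted p = 0.294). Without TC71 0 h replicate 1 the MIR137HG value there was 1.08 (adjusted p = 0.0359).

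Smaller rises in EW8 were those of MIR924HG (0.78, adjusted p = 3.84e-06), MIR503HG (0.63, adjusted p = 0.0059), MIRLET7BHG (0.60, adjusted p = 3.01e-04) and MIR3659HG (0.38, adjusted p = 0.0445). The MIR503HG call was lost without EW8 0 h replicate 3, where its value dropped to 0.34 (adjusted p = 0.157). That of MIR3659HG was lost without any of 5 single libraries: EW8 0 h replicate 1 (adjusted p = 0.123) or 2 (0.234), EW8 48 h replicate 1 (0.105) or 3 (0.133) and TC71 0 h replicate 1 (0.0522). It was also lost with DESeq2 (0.0839), no filter on low counts (0.0595) or each line fitted alone (0.0647). MIR222HG, host of miR-221 and miR-222, which act against the cell cycle inhibitor p27, fell in TC71 (-0.61, adjusted p = 0.00915), with 0.06 in EW8, a call lost without TC71 0 h replicate 3 (adjusted p = 0.098) or TC71 48 h replicate 3 (adjusted p = 0.0939). MIR222HG was at 1.97, 1.86 and 2.61 CPM in TC71 at 0 h and at 1.6, 1.6 and 1.08 CPM at 48 h. MIR1915HG fell in TC71 (-0.44, adjusted p = 0.00592), from 6.29, 6.62 and 5.67 CPM to 4.96, 4.25 and 4.45 CPM, with 0.02 in EW8. MIR22HG, host of a tumour-suppressive microRNA, passed in neither line, with 0.17 (adjusted p = 0.349) in EW8 and -0.23 (adjusted p = 0.237) in TC71. MIR3936HG, MIR3663HG, MIR646HG and MIR99AHG did not pass in either line, though with total-count scaling MIR3663HG (1.11, adjusted p = 0.0442) and MIR99AHG (0.50, adjusted p = 0.0431) did in EW8.

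The 10 untested microRNA hosts had at most 10 counts in any library. MIR155HG, the host of miR-155 known from B cells, had 0 to 3 counts per library, and MIR210HG, the host of the hypoxia-induced miR-210, had 1 to 10. No change in either was tested.

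**Figure D4:**
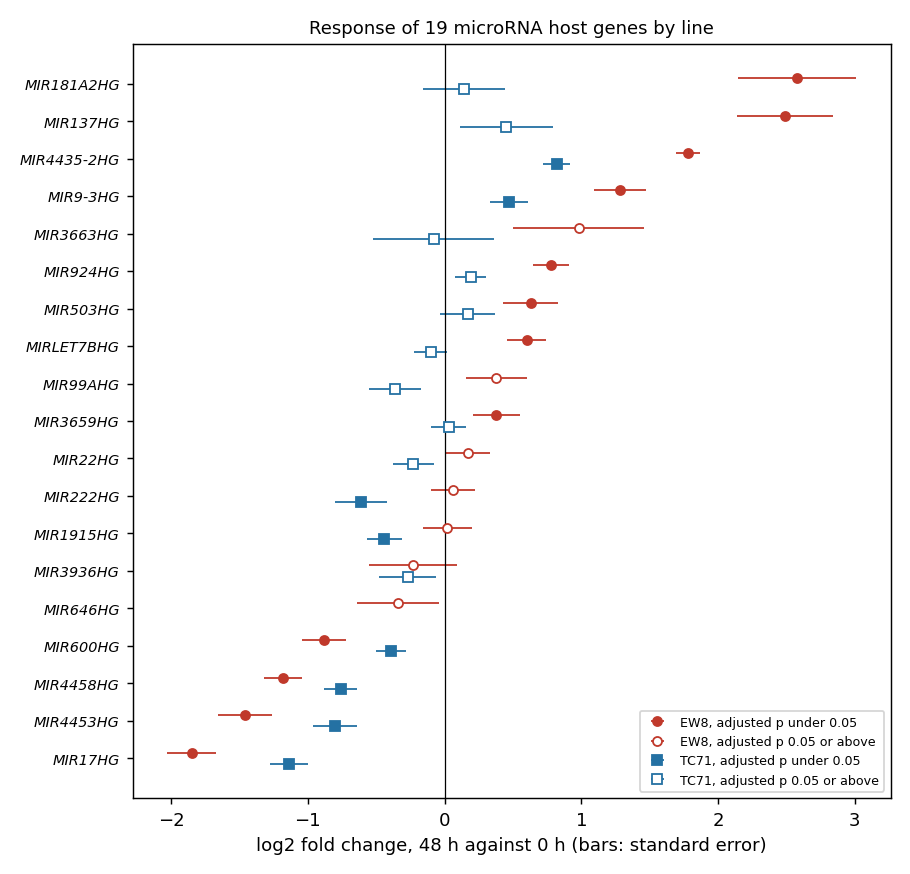
Log2 fold change at 48 h against 0 h (x axis) of 19 microRNA hosts, ordered by their value in EW8, with standard errors; circles are EW8, squares TC71 and filled symbols have an adjusted p under 0.05. MIR3681HG, absent at 0 h, and the TC71 value of MIR646HG, absent in that line, are not drawn. MIR17HG is lowest in both lines, at -1.85 and -1.14.

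Summed over the class, the snoRNA hosts were higher at 48 h in EW8 and lower at 48 h in TC71. They reached 2506, 2432 and 2534 CPM in the EW8 libraries at 0 h and 2854, 2893 and 2889 CPM at 48 h, and in TC71 2730, 2729 and 2802 CPM and then 2294, 2372 and 2242 CPM. The groups did not overlap in either line. The microRNA hosts summed to 59.3, 56.1 and 56.7 CPM and then 77.9, 77.5 and 82.9 CPM in EW8. In TC71 they summed to 76.3, 78.9 and 85.3 CPM and then 78.2, 80 and 68.1 CPM, and these overlapped. A few members set these sums, since the 5 highest snoRNA hosts gave between 56.7% and 61.2% of the total in each group and the 5 highest microRNA hosts between 50.4% and 65.4%.

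**Figure D5:**
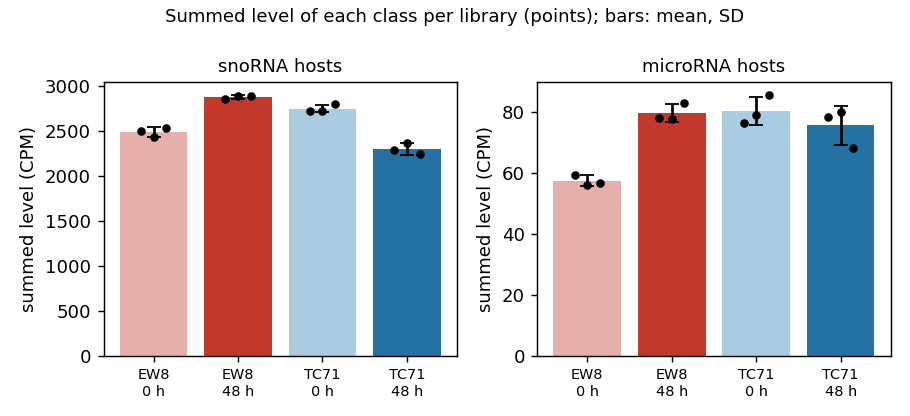
Summed CPM (y axis, from 0) of the 27 snoRNA hosts and of the 30 microRNA hosts by line and time; bars are means, error bars SD (n = 3) and points libraries. The snoRNA hosts go from a mean of 2490 to 2879 CPM in EW8 and from 2754 to 2302 CPM in TC71, and the microRNA hosts go from 57.4 to 79.4 CPM in EW8 and from 80.2 to 75.4 CPM in TC71.

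The response itself differed between the lines, tested as an interaction, for 17 of 27 snoRNA hosts and 11 of 20 microRNA hosts. The EW8 value was the higher for 12 and 8 of them, and the lower for 5 and 3. Among all genes tested, 25.7% had a higher and 22.4% a lower response in EW8. The difference was 1.45 (SE 0.07, adjusted p = 1.62e-17) for SNHG17, 1.31 (SE 0.06, adjusted p = 5.81e-19) for SNHG32 and 1.31 (SE 0.07, adjusted p = 4.89e-17) for SNHG15 on the log2 scale. It was -0.67 (SE 0.06, adjusted p = 2.81e-11) for DANCR, -0.41 (SE 0.06, adjusted p = 1.52e-06) for SNHG14 and -0.39 (SE 0.06, adjusted p = 3.45e-06) for SNHG16. Among microRNA hosts it was 0.97 (SE 0.13, adjusted p = 2.61e-07) for MIR4435-2HG and -0.71 (SE 0.24, adjusted p = 0.0167) for MIR17HG, and the latter was lost without EW8 48 h replicate 2 (adjusted p = 0.0732). The count for microRNA hosts dropped to 7 without EW8 48 h replicate 3, and total-count scaling left 8 higher and 1 lower.

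Before doxycycline was removed, most hosts that differed were lower in EW8. At 0 h, 5 of 27 snoRNA hosts were higher in EW8 than in TC71 and 17 were lower, and of 20 microRNA hosts 2 were higher and 9 lower, against 32.8% and 32.9% of all genes tested. With the replicate number as a block in the fit, 3 snoRNA hosts were higher and 12 lower, and 1 microRNA host was higher and 10 lower. The largest called differences belonged to hosts with few reads in EW8, SNHG31 (-2.24, SE 0.41, adjusted p = 1.50e-05) and MIR181A2HG (-2.13, SE 0.44, adjusted p = 7.95e-05), apart from MIR646HG, which TC71 lacked. SNHG9, at 1.84, 2.69 and 2.53 CPM in EW8 and 7.08, 7.11 and 5.38 CPM in TC71, differed by -1.47 (SE 0.15, adjusted p = 1.25e-10). SNHG25 and SNHG19 differed by -1.06 (SE 0.18, adjusted p = 3.51e-06) and -0.94 (SE 0.12, adjusted p = 1.13e-08). The 5 snoRNA hosts that were higher in EW8 differed by less, by 0.31 for SNHG10, 0.24 for SNHG15, 0.17 for SNHG1, 0.15 for SNHG5 and 0.11 for SNHG16, and scaling to total counts alone took SNHG16 to -0.02, SNHG5 to 0.01, SNHG1 to 0.03 and SNHG10 to 0.17, none of them called, and left 1 snoRNA host higher and 20 lower in EW8. The SNHG10 call was lost with DESeq2 (adjusted p = 0.0547) and without EW8 0 h replicate 3 (adjusted p = 0.116) or TC71 0 h replicate 1 or 2 (0.179 and 0.17), and that of SNHG16 with at least 10 counts in every library (0.0565) and without EW8 0 h replicate 1 (0.064) or TC71 0 h replicate 1 or 2 (0.0953 and 0.118).

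Of the microRNA hosts, MIR1915HG, MIR9-3HG and MIR600HG were lower in EW8 at 0 h, by -1.37 (SE 0.15, adjusted p = 6.77e-10), -1.36 (SE 0.18, adjusted p = 1.69e-06) and -1.25 (SE 0.12, adjusted p = 3.38e-11). MIR222HG was higher in EW8 by 0.54 (SE 0.17, adjusted p = 0.00511), but did not pass with the replicate number as a block (adjusted p = 0.0644). MIR646HG had 25, 16 and 31 counts in EW8 at 0 h and none in any of the 6 TC71 libraries, so it was at least 7.72-fold higher in EW8. Per kb of canonical transcript at 0 h, MIR17HG had the highest level of the tested class in both lines, at 10.7 CPM per kb in EW8 and 12.5 in TC71. It was followed by MIR4435-2HG (9.18) and MIR4458HG (5.25) in EW8 and by MIR1915HG (10.7) and MIR9-3HG (8.52) in TC71.

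Protein-coding hosts of snoRNAs, most of them ribosomal protein and translation factor genes, mostly fell in both lines. Of 37 listed genes, 33 fell and 3 rose in EW8 (median log2 fold change -0.54), and 34 fell and none rose in TC71 (median -0.24). The shares of all genes tested that fell were 31.6% and 19.2%. The fold exceeded 2 in EW8 for HSPA8, a chaperone that fell by 1.26 (SE 0.04, adjusted p = 4.57e-24), NCL, the nucleolar protein nucleolin, which fell by 1.19 (SE 0.03, adjusted p = 1.33e-25), and RPL7A, which fell by 1.02 (SE 0.04, adjusted p = 3.83e-23). DDX39B, at 0.43 (adjusted p = 0.0312), TNPO2 and HSPA9 were those that rose. Of 28 tested protein-coding microRNA hosts, EW8 had 8 risen and 12 fallen and TC71 10 risen and 7 fallen, with medians of -0.08 and 0.02, beside 37.0% risen and 31.6% fallen among all genes in EW8 and 22.9% and 19.2% in TC71. The lowest and highest called values in EW8 were those of PPARGC1B (-1.16, adjusted p = 5.28e-18), a coactivator of mitochondrial genes, and LPP (0.97, adjusted p = 2.15e-15), a focal adhesion protein.

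Of 16 snoRNP proteins and assembly factors, 10 fell and 4 rose in EW8, whereas in TC71 10 fell and 1 rose, with medians of -0.23 and -0.17. For this list and those that follow, the shares over all genes tested were 37.0% risen and 31.6% fallen in EW8 and 22.9% risen and 19.2% fallen in TC71. DKC1, the pseudouridine synthase of H/ACA particles, had the lowest value in both lines (-0.95, SE 0.04, adjusted p = 4.68e-21, and -0.42, SE 0.04, adjusted p = 7.96e-11). FBL, the methyltransferase of box C/D particles, had -0.58 and -0.17. Of 13 microRNA processing and effector genes, 7 fell and 5 rose in EW8 and 5 fell and 4 rose in TC71, with DICER1 lowest in both (-0.81, adjusted p = 5.23e-17, and -0.34, adjusted p = 1.89e-07) and TNRC6C highest in EW8 (0.55, adjusted p = 6.56e-10). Of 16 nonsense-mediated decay and exon junction factors, EW8 had 7 risen and 6 fallen and TC71 1 risen and 4 fallen. SMG8 was lowest (-0.63, adjusted p = 2.79e-12, in EW8) and SMG9 highest (0.35, adjusted p = 5.25e-07), and UPF1, the core helicase of that decay, had 0.11 and 0.08 and did not pass (adjusted p = 0.0872 and 0.24).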

How the data were processed

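Polyadenylated RNA of the 12 libraries was prepared by the authors with a stranded mRNA kit and sequenced as paired-end 100 bp reads; reads were checked with FastQC and mapped to hg38 with STAR. The deposited values are raw counts per gene with no normalization. The counting tool, strand setting and annotation are not given in the sources used here, so overlapping and antisense genes are uncertain. The lowest row sum was 21, which shows that low genes had been removed. The table's members and all lists were chosen with earlier results of these data known.

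The model was edgeR 4.0.16 (R 4.3.3) with filterByExpr on the 4 groups at its defaults (count 10, total 15), TMM factors and a robust quasi-likelihood fit, with contrasts for each line, their difference and 0 h. Identifiers matched GENCODE release 44 for 19943 of 20771 genes; canonical transcripts gave lengths, and RefSeq tables gave promoters from 250 bases before to 50 after each start. A floor of 3 counts per library bounded folds against empty groups. Named were 10 measured hosts of known function, the 5 largest changes per class and line (no overlap, at least 20 counts in the lower group), the 3 line differences each way with the smallest p (at least 20 counts in the lower group of each line), the 3 highest levels per length and, with no overlap and at least 20 counts in the higher group, the 3 largest 0 h differences each way and class; the others are given by count or shortly. Alternatives were other scalings, DESeq2 1.42.0, other filters, each line alone, a replicate block, a non-robust fit, stricter thresholds and each library left out. The procedure was tested on simulated data with changes of 0.5 and 1 on the log2 scale put into EW8 at 48 h. It called 73% and 85.9% of the changed genes in EW8, and 61% and 77.8% of them as line differences, so some true changes were missed. No replicate pair agreed within sampling noise (lowest chi-square per gene 2.05). Figures used matplotlib 3.10.9.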

Additional observations from a re-analysis of the deposited data

Results flagged for a closer look

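For 28 hosts the response differed between the lines by the interaction test (edgeR's quasi-likelihood test, adjusted p under 0.05 over all genes tested); the values are the EW8 minus the TC71 log2 fold change. For 12 snoRNA hosts the EW8 response was the higher: SNHG17 (1.45), SNHG32 (1.31), SNHG15 (1.31), SNHG1 (0.94), ZFAS1 (0.91), SNHG12 (0.90), SNHG11 (0.90), SNHG8 (0.83), EPB41L4A-AS1 (0.80), SNHG20 (0.73), GAS5 (0.54) and SNHG7 (0.29). For 5 it was the lower: SNHG19 (-0.72), DANCR (-0.67), SNHG10 (-0.49), SNHG14 (-0.41) and SNHG16 (-0.39). For 8 microRNA hosts it was the higher: MIR181A2HG (2.43), MIR137HG (2.04), MIR4435-2HG (0.97), MIR9-3HG (0.82), MIR99AHG (0.74), MIRLET7BHG (0.71), MIR222HG (0.67) and MIR924HG (0.59). For 3 it was the lower: MIR17HG (-0.71), MIR4453HG (-0.66) and MIR600HG (-0.49). Some of these calls rest on single libraries or on the tool. That of MIR4453HG (adjusted p = 0.0373) did not pass with DESeq2 (0.0776), with total-count scaling (0.0677) or without EW8 0 h replicate 1 or 2, EW8 48 h replicate 2 or 3, TC71 0 h replicate 1 or TC71 48 h replicate 1 or 2 (0.0566 to 0.0993). That of MIR600HG (0.039) did not pass with DESeq2 (0.0791), with total-count scaling (0.0801) or without EW8 0 h replicate 1 or 3, EW8 48 h replicate 1 or 3, TC71 0 h replicate 1 or TC71 48 h replicate 1 (0.0528 to 0.105). That of MIR222HG (0.026) did not pass with DESeq2 (0.076) or without EW8 0 h replicate 3, EW8 48 h replicate 1 or 3, TC71 0 h replicate 3 or TC71 48 h replicate 3 (0.051 to 0.125). That of MIR99AHG (0.0357) did not pass with DESeq2 (0.098) or without EW8 0 h replicate 1, EW8 48 h replicate 3, TC71 0 h replicate 2 or TC71 48 h replicate 1 or 3 (0.0643 to 0.148). That of SNHG10 (0.03) did not pass with DESeq2 (0.0541), with total-count scaling (0.0702) or without EW8 0 h replicate 3, EW8 48 h replicate 3, TC71 0 h replicate 1 or 2 or TC71 48 h replicate 3 (0.0654 to 0.1). MIR17HG was lost without EW8 48 h replicate 2 (0.0732) and MIR9-3HG without EW8 0 h replicate 3 (0.0512). Other hosts gained a call under some alternatives. SNHG3 (-0.22, adjusted p = 0.0634) passed with DESeq2 (0.0334) or a non-robust fit (0.036). It also passed without EW8 48 h replicate 1 (0.0144), TC71 0 h replicate 3 (0.0169) or TC71 48 h replicate 3 (0.000718). MIR4458HG, SNHG5, SNHG21, SNHG29, SNHG30 and MIR1915HG passed under some alternatives too. Among the snoRNA hosts with the higher response in EW8, ZFAS1, SNHG8, EPB41L4A-AS1, SNHG12, SNHG20 and GAS5 rose in EW8 and fell in TC71.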

How the results depend on the processing

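Of the counts and medians over host classes, 315 values under the alternatives stayed close to those reported, 20 moved and 1 changed sign. Scaling to total counts alone moved the median of all genes from 0.03 to 0.16 in EW8 and gave 6 snoRNA hosts risen in TC71 and snoRNA-host medians of 0.02 in EW8 and -0.22 in TC71, with 0.51 for microRNA hosts in EW8. With a fold above 2, 6 snoRNA and 5 microRNA hosts rose and 3 snoRNA hosts fell in EW8, 0 snoRNA hosts and, by its fitted fold, 1 microRNA host (MIR3681HG, bounded at 1.37-fold) rose and 1 of each fell in TC71, responses differed for 3 and 2, and 3 and 7 differed at 0 h. Each line fitted alone gave 1 microRNA host risen in TC71, and DESeq2 and an adjusted p under 0.01 gave 7 and 6 microRNA hosts with different responses. At least 10 counts in every library gave microRNA-host medians of 0.16 and -0.26. Leaving out 1 library at a time gave 10 to 13 snoRNA hosts risen and 12 to 14 fallen in EW8, 3 to 4 risen and 14 to 18 fallen in TC71, and 7 to 10 microRNA hosts with different responses. The class medians then ran from -0.15 to -0.07 (snoRNA, EW8), 0.31 to 0.47 (microRNA, EW8), -0.30 to -0.24 (snoRNA, TC71) and -0.23 to 0.00 (microRNA, TC71). Values that changed sign without a call were SNHG9 in TC71 (-0.06 to 0.13 with a library left out), MIR222HG in EW8 (-0.01 to 0.11) and MIR1915HG in EW8 (-0.17 to 0.23, and -0.01 with each line alone). The replicate numbers did not pair the samples (correlation of deviations -0.138 to -0.015 for equal numbers within a line and -0.041 to 0.106 across lines); with the number as a replicate block EW8 had 12 snoRNA hosts risen and 12 fallen and TC71 had 3 risen and 16 fallen. At 0 h, 3 snoRNA hosts were then higher and 12 lower in EW8, with the calls of DANCR, SNHG20, SNHG17, SNHG11, ZFAS1, SNHG10 and SNHG16 lost, and MIR222HG had an adjusted p of 0.0644. The EW8 rise of GAS5 then had an adjusted p of 0.0633, that of SNHG9 0.0484, the TC71 fall of SNHG20 0.0895, the falls of SNHG6 0.052 and 0.0947, and the line difference of MIR600HG 0.0664. Hosts under about 20 counts are limited by depth.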
